A study of Mus musculus with 6 samples.

Results

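The comparison was between mouse embryonic stem cells (ESCs) grown in 2i and the same lines grown in serum, over every mature miRNA of the count table. It takes in 4 of the 6 small RNA libraries, 2 for each medium, chosen by their medium as the sample labels give it and with no measured value used. The ESC lines RB18 and RB20, derived from C57BL/6 embryos in R2i with LIF, each gave 1 library in each medium after at least 10 passages, and each library was made from a pool of 3 cultures grown on gelatin without feeder cells. Serum medium held 15% fetal bovine serum and 1000 U/ml of the cytokine LIF. The 2i medium had no serum and held 1000 U/ml LIF, PD0325901 at 1 µM, which blocks the kinase MEK, and CHIR99021 at 3 µM, which blocks GSK3, so serum and the inhibitors changed together and their shares in any difference cannot be told apart. The other 2 libraries were from R2i medium (1 µM PD0325901, 1000 U/ml LIF and SB431542, a blocker of TGF-β receptors, at 10 µM) and were not compared. They entered the count filter, the scaling between libraries and the estimate of the spread.

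MicroRNAs are short RNAs cut from hairpin precursors, and either arm of the hairpin (5p or 3p) can become the mature form. The mature form lowers the output of mRNAs that pair with its seed, bases 2 to 8, so miRNAs with 1 seed act on overlapping sets of targets. In 2i, ESCs are held in a uniform ground state of pluripotency, whereas in serum they are more mixed and some cells are primed to differentiate. Many miRNAs are cut from long polycistronic transcripts. The clusters followed here include miR-290-295 and miR-302-367, which are typical of pluripotent cells, and the imprinted Dlk1-Dio3 and Sfmbt2 loci, whose miRNAs are made from the maternal and the paternal chromosome, respectively.

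Of 1907 mature miRNAs in the table, 1172 had a count in at least 1 of the 4 libraries and 571 had enough counts to be tested. The R2i libraries also counted in this filter, and with the 4 libraries alone 549 were tested. In 2i, 96 miRNAs were higher (16.8% of those tested) and 99 were lower (17.3%), at an adjusted p under 0.01 and more than 2-fold by the quasi-likelihood test of edgeR. The other 376 were not called. The median log2 fold change over all tested miRNAs was -0.03. The called miRNAs that were higher had a median log2 fold change of 3.73, and those that were lower -2.88. Without the RB20 library of 2i, 58 rather than 99 were called lower. Counts describe the whole culture, in which a change in the share of cells that make a miRNA and a change in its amount per cell cannot be told apart.

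The mature sequences below are those of selected miRNAs named in the text, from RefSeq for GRCm38, with the seed in capitals. The leading lower miRNAs of the Sfmbt2 locus (miR-467c-5p, miR-669a-5p and miR-669c-5p) have no reference sequence and are not shown. The first set holds miRNAs that were higher in 2i, and the first 3 of them are from the Dlk1-Dio3 locus.
miR-127-3p: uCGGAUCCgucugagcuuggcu
miR-541-5p: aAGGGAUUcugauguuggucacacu
miR-410-3p: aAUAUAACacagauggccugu
miR-211-5p: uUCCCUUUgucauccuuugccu
miR-499-5p: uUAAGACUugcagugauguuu
The second set holds miRNAs that were lower in 2i. The seed of miR-208b-3p differs at 1 base from that of miR-499-5p, which was higher.
miR-21a-5p: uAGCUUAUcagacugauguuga
miR-22-3p: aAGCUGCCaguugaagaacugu
miR-92a-3p: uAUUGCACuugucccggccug
miR-10a-5p: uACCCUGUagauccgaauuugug
miR-203-3p: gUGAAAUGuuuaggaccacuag
miR-208b-3p: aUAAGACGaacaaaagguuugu
The third set shows pairs that share a seed but not a result. Within the first pair miR-302b-3p was called and miR-295-3p was not, and within the second let-7g-5p was called and let-7a-5p was not.
miR-295-3p: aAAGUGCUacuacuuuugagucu
miR-302b-3p: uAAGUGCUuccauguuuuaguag
let-7g-5p: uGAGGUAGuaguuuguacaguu
let-7a-5p: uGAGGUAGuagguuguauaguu

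**Figure D1:**
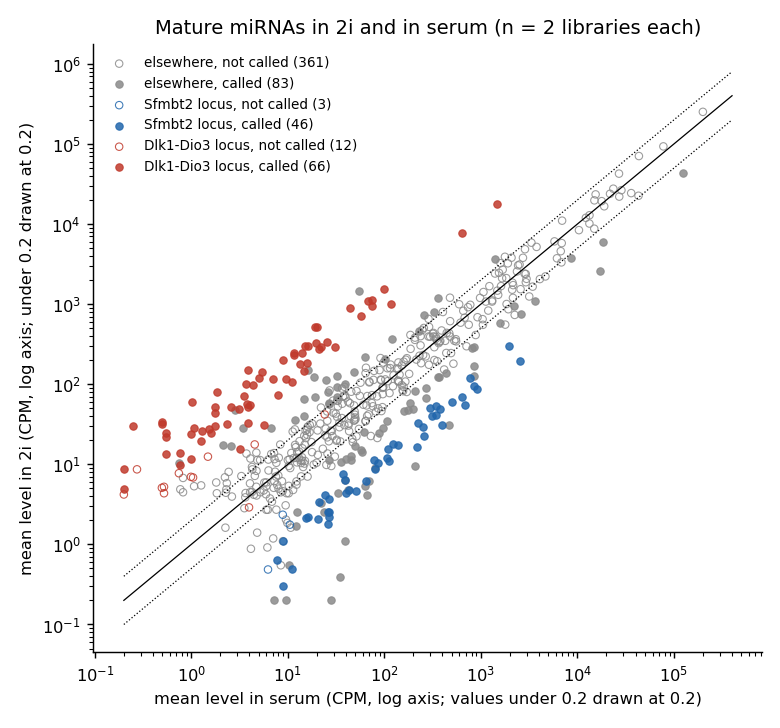
Mean level of each of the 571 tested miRNAs in serum (x axis) and in 2i (y axis), in counts scaled by library (CPM) on log axes, with filled points for called miRNAs and dotted lines at a 2-fold difference. The 66 called miRNAs of the Dlk1-Dio3 locus lie above the lines and the 46 called miRNAs of the Sfmbt2 locus lie below them, while of the 20 most abundant miRNAs all but miR-92a-3p and miR-22-3p were not called.

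The Dlk1-Dio3 locus held most of the miRNAs that were higher in 2i. Between Dlk1 and Dio3 (chr12:109463337-110279067, GRCm38) lie the genes of 116 miRNAs of the table, of which 102 had a count and 78 were tested. Of these 78, 66 were higher in 2i and 0 were lower. They made up 68.8% of all miRNAs called higher. With the 4 libraries alone, 72 members were tested and 64 were higher. The median log2 fold change over the 78 was 3.97, and among the 66 the fold changes ran from 2.28 to 7.36 on the log2 scale. Together the miRNAs of the locus took 0.206% of counts in RB18 and 0.378% in RB20 in serum, against 4.14% and 3.67% in 2i. Every called member has a single annotated gene.

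The most abundant member was miR-127-3p, whose gene overlaps Rtl1 on the opposite strand (chr12:109592846-109592915). Whether counting used strand is not given in the sources used here, and without it reads of the miRNA and of the opposite strand cannot be told apart. Its counts were 1591 (RB18) and 4239 (RB20) in serum, and 39234 and 53475 in 2i. Scaled by library, this was 1486 ± 870 CPM in serum and 17689 ± 1935 CPM in 2i (SD, n = 2). Both 2i libraries lay far above both serum libraries, with a log2 fold change of 3.57 ± 0.42 (SE, edgeR adjusted p = 0.000257). miR-541-5p, from Mirg (chr12:109742409-109742498), had 825 and 1632 counts in serum and 16424 and 24556 in 2i, a log2 fold change of 3.62 ± 0.33 (edgeR adjusted p = 8.3e-05). miR-410-3p, also from Mirg (chr12:109743715-109743795), had 104 and 281 counts in serum against 3079 and 5104 in 2i, a log2 fold change of 3.96 ± 0.44 (edgeR adjusted p = 2.0e-04). In all 3 the RB20 serum library was higher than the RB18 serum library, while the 2i libraries lay close together.

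Other members changed more than these. miR-431-5p, whose gene also overlaps Rtl1, rose from 23 and 52 counts to 1122 and 1648, a log2 fold change of 4.76 ± 0.40. Its partner miR-431-3p rose from 4 and 3 counts to 145 and 298 (5.43 ± 0.42). miR-666-5p had 7 and 8 counts in serum and 315 and 489 in 2i (5.26 ± 0.29). For all 3 the edgeR adjusted p was under the limit, at 6.9e-05, 6.9e-05 and 6.6e-05. Several members were at or under 3 counts, the limit of what these depths can show, in both serum libraries, and for those only a bound can be given. miR-377-3p, with 1 and 3 counts in serum and 106 and 221 in 2i, was at least 38.0-fold higher. miR-1197-3p, with 0 and 2 counts against 78 and 99, was at least 21.8-fold higher. For miR-369-5p, with 0 and 2 counts against 70 and 95, the bound was 20.1-fold. Each bound, here and below, sets the mean CPM of the higher medium over that of 3 counts in each library of the other. It holds for the means of the media and not for each line.

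The rise extended along the whole cluster. Of the 10 tested miRNAs that overlap Rtl1, 9 were higher, with a median log2 fold change of 4.001. In Rian, 3 of 4 were higher (median 3.57). Between miR-379 and miR-539, 29 of 31 were higher (median 4.11). In Mirg, 18 of 21 were higher (median 3.98). The tested miRNAs in Meg3 and in Dio3os, at the ends of the cluster, were not called. The single tested miRNA of Meg3, miR-770-3p, had 1 and 1 counts in serum and 14 and 12 in 2i, with a log2 fold change of 3.15 ± 0.86 (edgeR adjusted p = 0.017), a size within the range of the called members. The pair in Dio3os, miR-1247-5p and miR-1247-3p, had log2 fold changes of 0.81 and 1.94 and was not called either (edgeR adjusted p = 0.181 and 0.0394). Only miR-654-3p had a negative estimate among the 78 tested (-0.31), with 0 and 16 counts in serum and 0 and 19 in 2i, that is, counts in RB20 alone.

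The lines differed in the size of the change at this locus. The median log2 fold change of the 78 tested members was 4.45 in RB18 and 3.54 in RB20, and 55 of the 66 called members changed more in RB18. With 1 library per line and medium this difference was not tested. In both lines, 64 of the 66 called members changed more than 4-fold. With the cell line as a block, 64 rather than 66 were called, and miR-412-3p was among those lost (edgeR adjusted p = 0.0126). Where every one of the 4 libraries had to hold at least 10 counts, 29 members could be tested and 28 were called higher.

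**Figure D2:**
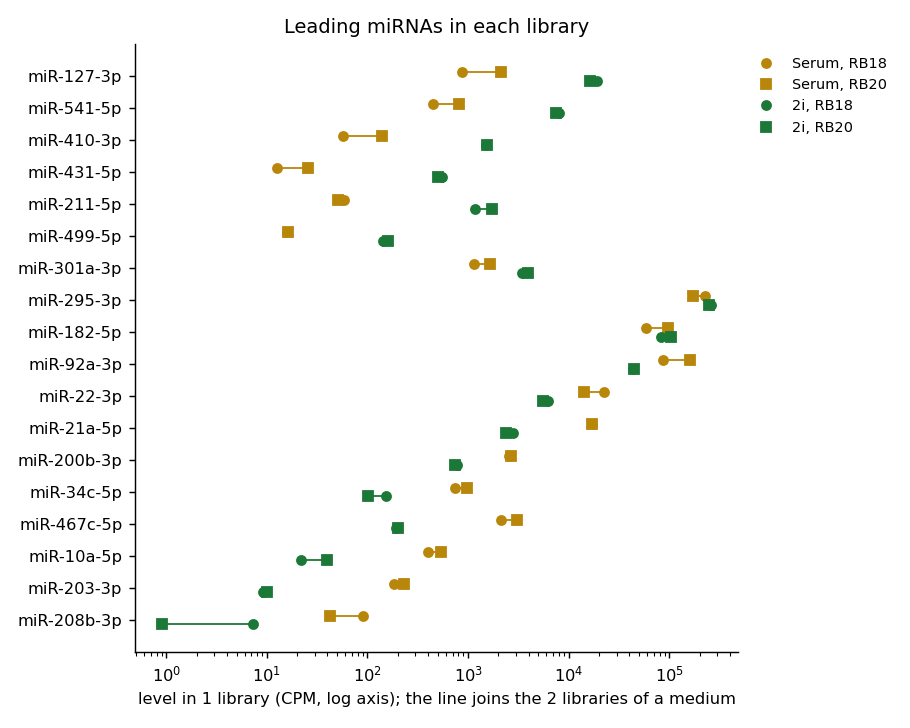
Level of 18 miRNAs in each of the 4 libraries, in CPM on a log axis, with circles for RB18 and squares for RB20, and a line joining the 2 libraries of a medium. The 2i libraries lie to the right of both serum libraries for miR-127-3p to miR-301a-3p and to the left for miR-92a-3p to miR-208b-3p.

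The Sfmbt2 locus held the largest group of miRNAs that were lower in 2i. Intron-borne copies of the miR-297, miR-466, miR-467 and miR-669 families lie in Sfmbt2, a Polycomb gene (chr2:10370510-10595253, GRCm38). Of 64 miRNAs whose genes all lie there, 60 had a count and 49 were tested, of which 46 were lower in 2i and 0 were higher. The median log2 fold change was -3.09, and the 46 called members ranged from -4.67 to -2.34. The locus took 1.31% (RB18) and 1.27% (RB20) of counts in serum and 0.157% and 0.145% in 2i. The 3 that were not called, miR-297c-5p, miR-466l-3p and miR-466o-3p, also had negative estimates (-3.84, -1.86 and -2.71) with no more than 28 counts in any library.

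The leading member was miR-467c-5p, with 3843 and 6123 counts in serum and 397 and 654 in 2i. Its level was 2569 ± 658 CPM in serum and 196.2 ± 4.78 CPM in 2i (SD, n = 2), which gave a fold change of -3.71 ± 0.29 on the log2 scale (edgeR adjusted p = 6.9e-05). miR-669a-5p had 3423 and 4134 counts in serum and 667 and 924 in 2i (-2.69 ± 0.24), and miR-669c-5p had 1311 and 2248 against 178 and 282 (-3.41 ± 0.30). In each of them both serum libraries lay well above both 2i libraries. The families are repetitive. Of the 49 tested, 13 have more than 1 gene in the locus and their reads cannot be given to a single copy, but 33 of the 36 with 1 gene were called lower as well, with a median of -3.17 over the 36. A further 16 miRNAs of these families have at least 1 gene outside Sfmbt2 or could not be placed. Of the 8 tested, 7 were lower, among them miR-297a-5p (139 and 168 counts in serum, 18 and 30 in 2i, log2 fold change -3.14 ± 0.26) and miR-466f-5p (113 and 127 against 11 and 18, -3.51 ± 0.33). Near-identical copies make the assignment of these reads uncertain. Members with several genes, such as miR-466f-5p with 4, may also have copies in Sfmbt2.

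The 2 lines lay closer together here. The median log2 fold change of the 49 tested members was -2.90 in RB18 and -3.12 in RB20, and 23 of the 46 called changed more in RB18. With the cell line as a block 45 were called lower, and with at least 10 counts required in each of the 4 libraries 29 of 29 tested.

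**Figure D3:**
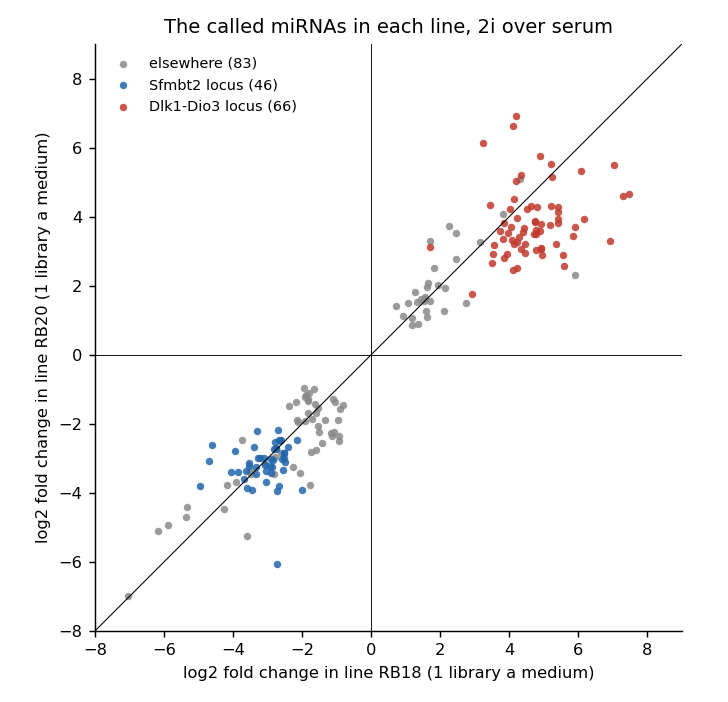
Log2 fold change of each called miRNA in line RB18 (x axis) and in line RB20 (y axis), 1 library per medium and line, with the diagonal marking an equal change. All 195 called miRNAs, which were called from these same libraries, changed in the same direction in both lines, and most of the 66 Dlk1-Dio3 miRNAs lie below the diagonal.

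Outside these 2 loci 444 miRNAs were tested, and 30 (6.76%) were higher and 53 (11.9%) were lower. The 53 include the 7 lower miRNAs of the miR-297, miR-466, miR-467 and miR-669 families not in the Sfmbt2 list, all more than 4-fold lower. Some of these may also have copies in Sfmbt2. Changes outside the 2 loci were smaller: the median log2 fold change was 1.68 for the miRNAs called higher and -1.94 for those called lower. More than 4-fold changes were seen for 11 miRNAs that were higher and 24 that were lower. Counts of calls in the lists below stand beside 16.8% higher and 17.3% lower of all tested miRNAs.

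Among miRNAs that were higher outside the imprinted loci, miR-211-5p had the largest fold change. It lies in Trpm1, a gene of melanocytes and retina (chr7:64205806-64205911). Its counts were 107 and 102 in serum and 2390 and 5712 in 2i, or 54.6 ± 5.67 CPM against 1452 ± 412 CPM (SD, n = 2), with a log2 fold change of 4.73 ± 0.44 (edgeR adjusted p = 8.4e-05). The other arm, miR-211-3p, rose from 5 and 6 counts to 86 and 175. miR-204-5p has the same seed and lies in the related gene Trpm3, but had 10 and 8 counts in serum and 9 and 20 in 2i, a log2 fold change of 0.18 (edgeR adjusted p = 0.807). In the list of miR-147, miR-184, miR-187, miR-204 and miR-211, 6 of 7 tested were higher (median 1.62), against 16.8% of all tested miRNAs. The list was chosen with earlier results of these data known, so this count is not independent of them. miR-184-3p had 34 and 38 counts in serum, and 125 (RB18) and 606 (RB20) in 2i, so its change was larger in RB20. The call of miR-187-3p was lost with the cell line as a block (edgeR adjusted p = 0.0211).

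The cardiac and skeletal muscle miRNAs moved in both directions. miR-499-5p, from an intron of the myosin gene Myh7b (chr2:155622880-155622958), had 29 and 33 counts in serum and 296 and 521 in 2i, a log2 fold change of 3.23 ± 0.40 (edgeR adjusted p = 0.000346). miR-208b-3p, from the myosin gene Myh7 (chr14:54975700-54975776), had 165 and 86 counts in serum and 15 and 3 in 2i, a log2 fold change of -4.17 ± 0.72 (edgeR adjusted p = 0.00196). The seeds of these 2 miRNAs differ by U8G, with the base of miR-499-5p first and positions counted from 1 at the 5′ end. The pool of each seed moved in the direction of its miRNA, but it holds the reads of that miRNA, so this is not a further result. miR-1a-3p had 52 and 55 counts in serum and 0 in both 2i libraries, a fall of at least 23.5-fold. miR-133a-3p, which is cut from the same precursor transcripts as miR-1a, had 93 and 36 counts in serum and 1 and 1 in 2i. By the means of the media it was at least 29.0-fold lower, but its serum libraries differed (50.9 CPM in RB18 and 17.8 CPM in RB20). Of 17 muscle miRNAs in the table, 4 were tested, 1 was higher and 3 were lower, and 6 had 0 counts in all 4 libraries. Their summed share of counts was small in both media, between 0.00994% and 0.0198%.

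The miR-130/301 and miR-15/16 families gave a few moderate rises. miR-301a-3p (in Ska2) rose from 2108 and 3326 counts to 7066 and 12952, a log2 fold change of 1.40 ± 0.26, and its partner miR-301a-5p from 36 and 37 to 128 and 253 (1.88 ± 0.25). In the miR-130/301 family 3 of 8 tested were higher and 0 lower, while miR-130a-3p had a log2 fold change of -0.25 and was not called. With the cell line as a block miR-301b-3p was called higher as well (1.37, edgeR adjusted p = 0.00961). miR-15a-5p, a cell cycle regulator, rose from 537 and 448 counts to 1446 and 2544 (1.52 ± 0.25), and 3 of 10 tested in the miR-15/16 family were higher. The call of miR-16-1-3p among them was lost with the cell line as a block (edgeR adjusted p = 0.0142). miR-16-5p, far more abundant at 48653 and 55123 counts in serum and 81168 and 149997 in 2i, was not called (log2 fold change 0.66, edgeR adjusted p = 0.076). Both arms of miR-324 were higher as well, miR-324-5p with 133 and 110 counts against 459 and 697 (1.78 ± 0.25) and miR-324-3p with 68 and 54 against 210 and 269 (1.52 ± 0.26).

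In the let-7 family, which is known for promoting differentiation and opposing LIN28, levels were low in both media. The family took 0.126% and 0.1099% of counts in serum and 0.175% and 0.199% in 2i. Of 14 tested, 2 were higher in 2i and 0 lower, with a median log2 fold change of 0.77, while 16.8% of all tested miRNAs were higher. let-7g-5p rose from 224 and 234 counts to 740 and 1203 (1.61 ± 0.23, edgeR adjusted p = 0.000643), and miR-98-5p from 46 and 58 to 118 and 199 (1.13 ± 0.23, edgeR adjusted p = 0.00457). let-7a-5p had a log2 fold change of 0.42 and was not called (edgeR adjusted p = 0.197). let-7f-5p reached an edgeR adjusted p of 0.00996 with a log2 fold change of 0.97, just under the 2-fold limit.

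Among miRNAs that were lower outside the imprinted loci, miR-21a-5p and miR-22-3p lost much of their share of counts. miR-21a-5p, a widespread miRNA often raised in proliferating and transformed cells (in Vmp1, chr11:86584067-86584158), had 31195 and 34476 counts in serum and 5716 and 7812 in 2i. This was 17079 ± 6.85 CPM against 2580 ± 277 CPM (SD, n = 2), a log2 fold change of -2.73 ± 0.24 (edgeR adjusted p = 7.8e-05). Its other arm, miR-21a-3p, fell from 1175 and 2136 counts to 391 and 492 (-2.32 ± 0.34). miR-22-3p fell from 40877 and 28480 counts to 12946 and 18074, a log2 fold change of -1.63 ± 0.29 (edgeR adjusted p = 0.00251). For both miRNAs the libraries of the 2 media did not overlap.

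Epithelial miRNAs were lower in 2i or not called. Of 11 epithelial miRNAs tested, 6 were lower and 0 higher, with a median log2 fold change of -1.24. miR-203-3p, a skin miRNA (chr12:112130880-112130955), fell from 332 and 462 counts to 19 and 33, a log2 fold change of -4.40 ± 0.28 (edgeR adjusted p = 6.6e-05). miR-200b-3p, which with its family holds back ZEB factors, fell from 4634 and 5440 counts to 1589 and 2415 (-1.79 ± 0.25), and miR-200a-3p from 3354 and 5143 to 1771 and 3398 (-1.21 ± 0.26). From the second miR-200 gene cluster, miR-200c-3p (-1.003, edgeR adjusted p = 0.0125) and miR-141-3p (-0.24, edgeR adjusted p = 0.611) were not called. miR-205-5p had 4639 and 9686 counts in serum and 2734 and 2800 in 2i (-1.75 ± 0.39), and its call was lost with the cell line as a block (edgeR adjusted p = 0.019), as was that of miR-200b-5p (edgeR adjusted p = 0.0158). With the block 4 of the 11 were called lower.

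The miR-34 family, whose genes are p53 targets, gave 3 lower of 8 tested with 0 higher (median -1.72 with the miR-449 members). All 3 come from the neighbouring genes Mir34b and Mir34c on chr9, and of all tested miRNAs 17.3% were lower. miR-34c-5p fell from 1340 and 1977 counts to 313 and 334, a log2 fold change of -2.76 ± 0.35, and miR-34b-3p from 63 and 65 to 10 and 13 (-2.92 ± 0.43). miR-34b-5p, with 19 and 21 counts against 1 and 2, was at least 8.77-fold lower. The more abundant miR-34a-5p, with 4301 and 3921 counts in serum and 2605 and 3705 in 2i, was not called (log2 fold change -0.84). Of 6 tested miRNAs of the Hox clusters, 1 was lower and 1 was higher. miR-10a-5p fell from 726 and 1092 counts to 45 and 129 (-3.92 ± 0.45, edgeR adjusted p = 0.000215). Its close relative miR-10b-5p, from another Hox cluster, had 1234 and 1605 counts in serum and 1403 and 3769 in 2i and was not called (log2 fold change 0.32, edgeR adjusted p = 0.491). miR-196a-5p rose from 198 and 196 counts to 419 and 690 (1.01 ± 0.23), a call lost with the block (edgeR adjusted p = 0.0147).

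Other imprinted genes gave a mixed picture. miR-483-3p, from an intron of Igf2, fell from 88 and 61 counts to 2 and 4 (-5.06 ± 0.46, edgeR adjusted p = 8.4e-05). Its partner miR-483-5p had 23 and 13 counts in serum and 0 in both 2i libraries, at least 8.02-fold lower, a call lost with the cell line as a block (edgeR adjusted p = 0.0102). miR-675-3p, cut from the H19 RNA, had 16 and 11 counts in serum and 0 in both 2i libraries, at least 5.99-fold lower. The other 6 tested members of this list were not called. miR-335-3p, from Mest, had 3635 and 3201 counts in serum and 1576 and 1127 in 2i (-1.69 ± 0.41, edgeR adjusted p = 0.0111), and was called lower with the cell line as a block (edgeR adjusted p = 0.00386). miR-335-5p had a log2 fold change of -1.16 (edgeR adjusted p = 0.0522), and miR-298-5p, from the Gnas region, one of 0.81 (edgeR adjusted p = 0.0251).

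In the miR-23/27/24 clusters 3 of 9 tested were lower, and they were miR-27a-3p (2948 and 3109 counts against 957 and 2325, -1.42 ± 0.29), miR-27a-5p and miR-23a-3p. All 3 belong to the cluster on chr8, whereas miR-23b-3p (0.33) and miR-27b-3p (0.60) of the cluster on chr13 were not called. The call of miR-23a-3p was lost with the cell line as a block (edgeR adjusted p = 0.0129). In the miR-181 family 2 of 7 tested were lower, miR-181a-5p and miR-181a-2-3p, and both calls were lost with the block (edgeR adjusted p = 0.0209 and 0.0126). Of 10 tested miRNAs in Clcn5 on the X chromosome, 3 were lower and 7 were not called. miR-532-5p fell from 1373 and 1949 counts to 534 and 1084 (-1.54 ± 0.27), and miR-362-3p from 108 and 112 to 32 and 47 (-1.94 ± 0.24). Likewise miR-374b-5p and miR-421-3p of Ftx, a gene near Xist, had log2 fold changes of -1.54 ± 0.28 and -1.65 ± 0.29, and both arms of miR-28a, in Lpp, and of miR-674 were called lower.

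Most of the abundant miRNAs were not called. The 20 with the highest mean level took between 76.3% and 77.2% of counts in the 4 libraries, and of these 0 were called higher and 2 were called lower, miR-92a-3p and miR-22-3p. Of the 100 most abundant, 8 were higher and 11 lower. The 96 miRNAs called higher together took 0.529% (RB18) and 0.691% (RB20) of counts in serum and 5.15% and 4.73% in 2i. The 99 called lower took 16.8% and 21.4% in serum and 6.36% and 6.09% in 2i, and much of that fall was in miR-92a-3p.

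miR-92a-3p belongs to the miR-17-92 and miR-106a-363 clusters, which promote proliferation. It had 156413 and 327585 counts in serum and 89845 and 144382 in 2i, or 123968 ± 54247 CPM against 43854 ± 300 CPM (SD, n = 2), a log2 fold change of -1.50 ± 0.32 (edgeR adjusted p = 0.00531). The serum libraries differed from each other by more than the 2i libraries did, and in RB18 the log2 fold change was -0.97, against -1.88 in RB20. It has a gene in each of the clusters, so its reads cannot be given to either. Of 12 tested members of the miR-17-92 list it was the only one called. miR-17-5p had a log2 fold change of -0.20 and miR-19b-3p of -0.99 (edgeR adjusted p = 0.514 and 0.0568). In the miR-106a-363 list miR-92a-2-5p was also called lower, a call lost with the cell line as a block (edgeR adjusted p = 0.0124), while miR-363-3p (0.47), miR-106a-5p (-0.52) and miR-20b-5p (-0.88) were not called. The miR-106b-25 cluster had 0 of 6 called by edgeR, DESeq2 or limma and 0 at an unadjusted p under 0.05 by edgeR, with a median of 0.16.

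The main cluster of ESCs was abundant in both media. The miR-290-295 cluster took 43.5% and 33.5% of counts in serum and 41.3% and 39.2% in 2i, and 0 of its 14 tested members were called in either direction by edgeR, DESeq2 or limma (median log2 fold change -0.13). At an unadjusted p under 0.05 there were 4 by edgeR. miR-295-3p, the most abundant miRNA of all, had 416548 and 345015 counts in serum and 531388 and 803686 in 2i, or 199477 ± 40324 CPM against 251703 ± 9073 CPM (SD, n = 2). The log2 fold change was 0.34 ± 0.23 (edgeR adjusted p = 0.256). The largest change of an abundant member was that of miR-292a-5p, at -0.93 ± 0.27 (edgeR adjusted p = 0.0231), which is under the 2-fold limit as well.

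The miR-302-367 cluster, linked to primed pluripotency and to reprogramming, was far less abundant, at 0.219% and 0.298% of counts in serum and 0.658% and 0.392% in 2i. All 8 tested members had positive estimates (median log2 fold change 0.998), and 2 were called higher. miR-302b-3p rose from 636 and 765 counts to 3095 and 2997 (1.73 ± 0.41) and miR-302c-3p from 38 and 59 to 290 and 273 (2.15 ± 0.47). Both calls were lost with the cell line as a block (edgeR adjusted p = 0.0111 and 0.0117). RB18 had a median of 1.73 and RB20 one of 0.32, and miR-302d-3p, the most abundant member, differed between the lines in the same way, with log2 fold changes of 1.53 and 0.02.

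The miR-183/96/182 cluster, known from sensory organs and abundant in ESCs, took 9.84% and 13.7% of counts in serum and 15.8% and 17.5% in 2i. All 6 members had positive estimates, with a median of 1.01. Only miR-183-3p was called, with 686 and 574 counts in serum and 1604 and 2627 in 2i (1.26 ± 0.25, edgeR adjusted p = 0.00382). The abundant miR-182-5p and miR-183-5p had log2 fold changes of 0.26 ± 0.30 and 0.70 ± 0.38 and were not called (edgeR adjusted p = 0.499 and 0.153).

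**Figure D4:**
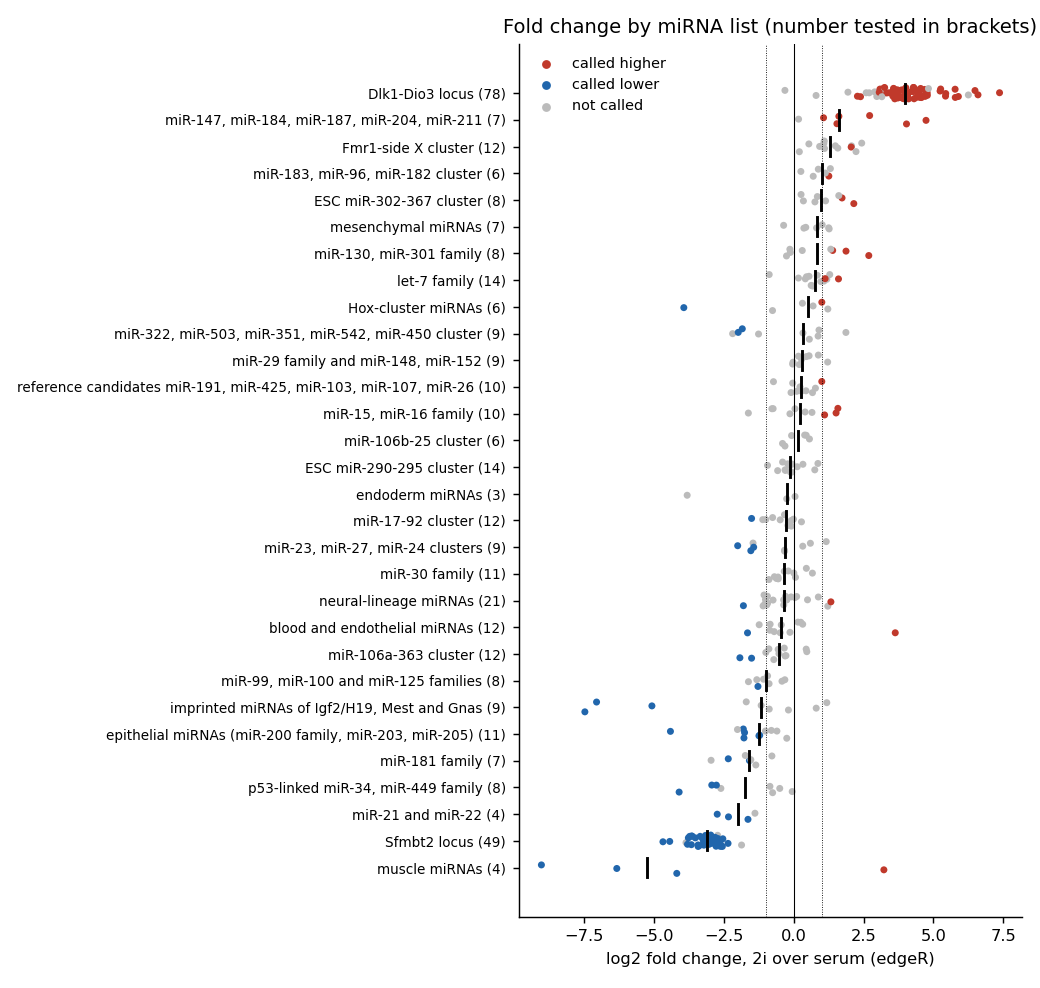
Log2 fold change (2i over serum, edgeR) of each tested miRNA by list, with the list median as a black bar, dotted lines at 2-fold and the number tested in brackets. The Dlk1-Dio3 and Sfmbt2 lists lie almost wholly beyond the lines in opposite directions, and the miR-290-295 cluster lies near 0, with a median of -0.13.

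The lists of further cell types are set beside the 16.8% higher and 17.3% lower of all tested miRNAs. Of 21 tested neural miRNAs 1 was higher (miR-218-5p, 60 and 93 counts against 210 and 320) and 1 was lower (miR-7b-5p, 57 and 99 against 29 and 31, a call lost with the cell line as a block at an edgeR adjusted p of 0.0114), with a median of -0.35. Neuronal miR-124-3p was present in both media, with 1138 and 681 counts in serum and 920 and 1120 in 2i (log2 fold change -0.28, edgeR adjusted p = 0.504). Of 12 blood and endothelial miRNAs 1 was higher and 1 was lower. Erythroid miR-451a had 0 and 3 counts in serum and 26 and 27 in 2i, at least 6.67-fold higher, a call lost with the block (edgeR adjusted p = 0.0134). The immune cell miRNA miR-155-5p fell from 335 and 367 counts to 125 and 184 (-1.64 ± 0.23). Among 7 mesenchymal and 3 endodermal miRNAs tested, 0 were called by edgeR. At an unadjusted p under 0.05 there were 3 mesenchymal and 1 endodermal miRNA, and DESeq2 called these numbers as well, the mesenchymal ones higher and the endodermal one lower, while limma called 1 mesenchymal miRNA higher. miR-143-3p of smooth muscle and fibroblasts was close, with 2407 and 3787 counts in serum and 6408 and 11069 in 2i (1.02 ± 0.25, edgeR adjusted p = 0.011). The summed share of the mesenchymal list was 0.155% and 0.189% of counts in serum and 0.345% and 0.366% in 2i. The share of these other cell types in the results above was not tested.

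The remaining lists had the following calls. Of the miR-30 family 0 of 11 were called by edgeR, DESeq2 or limma, with 3 at an unadjusted p under 0.05 by edgeR. Of miR-29 and miR-148/152 edgeR called 0 of 9, with 2 at an unadjusted p under 0.05, and DESeq2 called 1 higher. With the cell line as a block miR-152-3p was called higher (1.21, edgeR adjusted p = 0.00692). In the cluster of miR-322 and miR-503 2 of 9 were lower, miR-503-5p (103 and 70 counts against 22 and 40, -1.98 ± 0.33) and miR-322-3p, whose call was lost with the block (edgeR adjusted p = 0.0142). In the miR-99/100 and miR-125 families miR-99b-3p alone of 8 was called lower, a call also lost with the block (edgeR adjusted p = 0.0145), under which miR-125a-3p was called lower (-1.31, edgeR adjusted p = 0.00934). In the testis-rich cluster on the X chromosome beside Fmr1, 1 of 12 was higher, miR-743b-3p with 12 and 14 counts in serum and 61 and 89 in 2i, and all 12 had positive estimates (median 1.2998). Of 10 candidate reference miRNAs, miR-107-3p was called higher at the limit (1.01 ± 0.24), a call lost with the block (edgeR adjusted p = 0.0156). miR-191-5p had a log2 fold change of 0.11 and miR-26a-5p of 0.23.

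Each chromosome was then counted, over miRNAs with a single gene. Chromosome 12 had 66 of its 90 tested miRNAs called higher and 2 lower, and its share of counts was 1.02% and 1.40% in serum and 4.63% and 4.14% in 2i. Chromosome 2 had 36 of 54 called lower and 3 higher. All other chromosomes had at most 5 called higher and at most 9 called lower. The 9 lower ones were on the X chromosome, of 58 tested. The share of chromosome 7, which carries miR-290-295, was 43.7% and 33.7% in serum and 41.7% and 39.6% in 2i.

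Counts were then pooled over miRNAs with the same seed. Those without a reference sequence are in no pool, among them miR-467c-5p, miR-669a-5p and miR-669c-5p of Sfmbt2, and miR-34c-5p, miR-292a-3p and miR-302a-3p. Shares of seeds called are therefore over another set than the shares of miRNAs called. Of 373 seeds tested, 75 were higher in 2i (20.1%) and 42 lower (11.3%). Without the RB20 library of 2i 10 were lower, and without its RB18 library 11. This scale was set on the pools themselves, and with the scale of the single miRNAs every fold change rose by about 0.24 on the log2 scale, giving 77 higher and 31 lower. The changes below are therefore relative to the pools. Most called seeds, 95, had 1 detected member, and 22 had more.

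The seed AAGUGCU, shared by miR-295-3p, miR-294-3p, miR-291a-3p, miR-302d-3p and miR-302b-3p, took 28.5% and 19.1% of counts in serum and 29.9% and 27.5% in 2i, with a log2 fold change of 0.01 ± 0.23 (edgeR adjusted p = 0.98). On the scale of the single miRNAs it was 0.26 (edgeR adjusted p = 0.373). The pool, most of which is miR-295-3p, was thus not called on either scale, unlike miR-302b-3p. The seed GAGGUAG of 9 let-7 members, with 2140 and 2383 counts in serum and 3456 and 6500 in 2i, had a log2 fold change of 0.39 ± 0.24 (edgeR adjusted p = 0.211) and was not called either. On the scale of the single miRNAs it was 0.64 and also not called (edgeR adjusted p = 0.0581). The seed AUUGCAC of miR-92a-3p, miR-25-3p, miR-363-3p, miR-92b-3p, miR-32-5p and miR-367-3p fell from 10.4% and 16.3% of counts to 5.82% and 5.76% (-1.49 ± 0.28, edgeR adjusted p = 0.00263). On the scale of single miRNAs the same pool had a log2 fold change of -1.26 and was not called (edgeR adjusted p = 0.0108). The seeds GGAAGAC (miR-7a-5p and miR-7b-5p) and ACCCGUA (miR-99b-5p, miR-100-5p and miR-99a-5p) were called lower at -1.28 ± 0.26 and -1.30 ± 0.30, and likewise were not called on that scale (edgeR adjusted p = 0.0161 and 0.0198). UCCCUUU of miR-211-5p and miR-204-5p (4.37 ± 0.43), CGGAUCC of miR-127-3p (3.35 ± 0.39) and AGCUUAU of miR-21a-5p (-2.98 ± 0.26) were called on both scales.

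**Figure D5:**
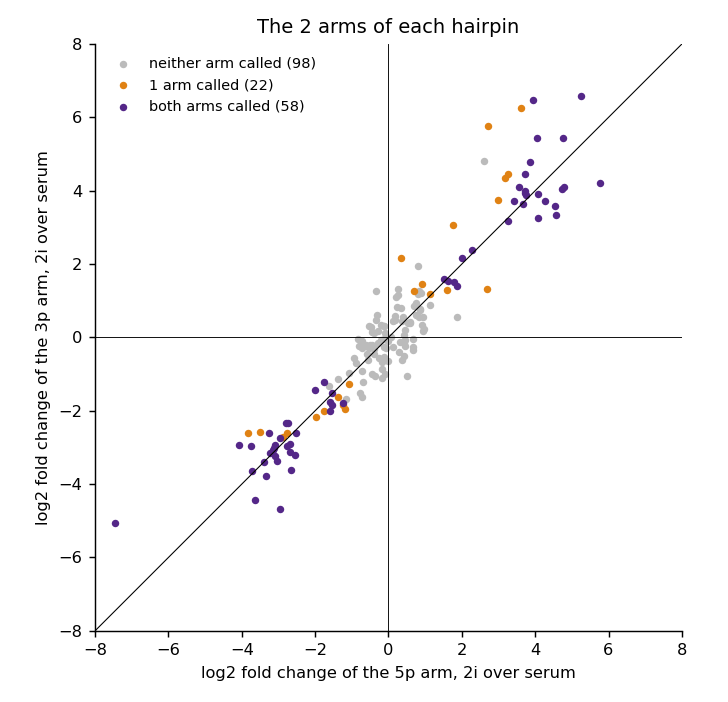
Log2 fold change of the 5p arm (x axis) and of the 3p arm (y axis) of 178 hairpins, coloured by how many arms were called, with the diagonal marking an equal change. The 58 hairpins with both arms called lie near the diagonal in the lower left and upper right corners.

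Where both arms of a hairpin were called, they changed in the same direction. Among 178 hairpins with both arms tested, both arms were called for 58, always in the same direction, 1 arm for 22 and neither for 98. Across hairpins, which are not independent replicates, the fold changes of the arms had a Pearson r of 0.946. The ratio of the 5p to the 3p arm was tested by limma and called for 0 of 178 (0%). In simulated counts this test recovered 50% of 30 hairpins whose ratio was changed 4-fold. The lack of calls therefore cannot show that the ratios stayed the same. The median absolute change of the log2 ratio was 0.439. At an unadjusted p under 0.05 there were 20 hairpins by limma and 18 by edgeR's diffSpliceDGE, which also called 0. The lowest adjusted p was that of miR-302c (limma adjusted p = 0.035), whose 5p arm had 29 and 50 counts in serum and 72 and 59 in 2i while the 3p arm went from 38 and 59 to 290 and 273, a change of the log2 ratio of -1.79 ± 0.33. Without the RB18 library of serum 7 hairpins were called.

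A few miRNAs had at least 10 counts in both libraries of a medium and 0 in both of the other. In serum these were miR-1a-3p, miR-483-5p and miR-675-3p, and in 2i miR-412-3p (12 and 13 counts), miR-539-5p (16 and 32), miR-541-3p (11 and 10) and miR-6896-5p (14 and 14). The first 3 of those in 2i belong to the Dlk1-Dio3 locus. miR-539-5p was at least 5.61-fold higher and miR-412-3p at least 3.13-fold. miR-541-3p was not called (edgeR adjusted p = 0.017) and miR-6896-5p was not tested. At these depths a count of 0 allows a level of up to 1.64 and 1.49 CPM in the serum libraries, and 1.46 and 0.916 CPM in 2i.

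All 195 called miRNAs changed in the same direction in both lines, with no overlap between the libraries of the 2 media. The calls were made from these same libraries, so this is not an independent check of them. Of all 571 tested, 444 (77.8%) had no overlap. More than 2-fold changes in both lines were seen for 184 of the 195. An exact permutation test of 2 against 2 libraries cannot go under a two-sided p of 0.333. The p-values therefore depend on the spread that edgeR pools over miRNAs, for which the common biological coefficient of variation was 24.57%.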

How the data were processed

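Small RNA of 6 mouse ESC libraries had been sequenced, and the 4 from 2i and serum were compared. Per the labels and the submitters' processing notes, the authors used FastQC 0.11.5, cutadapt 1.3, Bowtie 1.1.2 and featureCounts 1.5 with mm10, and deposited whole-number counts for 1907 miRNAs. The deposited log2 values of 1233 miRNAs equal log2(count/size factor + 1) to within 0.005. Whether counting used strand, and how reads with several positions were treated, is not given in the sources used here.

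Totals were 1744187 and 2243369 counts in serum and 2057602 and 3365676 in 2i (RB18, RB20). The 5 most abundant miRNAs took 46.36% to 49.64% of them. Counts are reads, so limits cover counting error only. RB20 was deeper in both media.

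Tests used edgeR 4.0.16 in R 4.3.3, with TMM scaling, filterByExpr (minimum count 10, minimum total 15), all 6 libraries, 1 coefficient per medium and Benjamini-Hochberg adjustment. SEs were taken from the F statistic (size of the log2 change over the root of F). CPM are TMM scaled. Arm ratios (pseudocount 0.5) were tested by limma 3.58.1. Values within a line used a prior count of 0.5. The spread is between cell lines, each a pool of 3 cultures. The libraries of a medium are paired with the other medium by cell line, as the labels name it, and the correlation of the RB20 minus RB18 differences between serum and 2i was 0.207. Tested on simulated counts for 2i against serum with 557 miRNAs tested, 96.94% of 196 miRNAs changed 4-fold were recovered with 2 false calls. For arm ratios over 168 hairpins, 50% of 30 changed 4-fold were recovered. Both simulations used a single spread for all miRNAs and no cell line effect. They changed only miRNAs above a minimum total count, and changed 2i and R2i alike. The recovery need not hold for the real libraries.

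Genes were placed on GRCm38 by GENCODE M21 and RefSeq for 1905 of 1907 names. RefSeq gave mature sequences for 1046 of the 1233 miRNAs with a count, which hold 91.89% to 94.7% of counts in the 4 libraries, and seeds were pooled over those.

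The comparison and the lists were chosen with earlier results of these data known. The named set held the 12 called miRNAs with the largest and the 12 with the smallest fold change at a mean of at least 10 CPM. It also held the 5 with the largest gain and the 5 with the largest loss of share, the 20 most abundant, and up to 3 called members of each list. Those found in a single medium, and leading seeds and hairpins, completed it. Not every member of the set is described above, for instance miR-666-3p (log2 fold change 6.59) and miR-5099 (-1.18). Relatives of the named miRNAs, members just past a limit, and miR-28a, miR-324, miR-362, miR-374b, miR-421, miR-532 and miR-674 were chosen once their values were known. The alternatives tried were DESeq2 1.42.0, other scalings, filters and thresholds, limma on the log2 values, the cell line as a block, fewer libraries and, added after seeing the data, another scale for the seed pools. R2i was not compared here.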

Additional observations from a re-analysis of the deposited data

Results flagged for a closer look

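For a pair of lists the median log2 fold change between 2i and serum had opposite signs in the 2 cell lines, and the difference between the lines was not tested. In the miR-30 family RB18 had a median of 0.0118 and RB20 one of -0.6928. In the cluster of miR-322, miR-503, miR-351, miR-542 and miR-450 it was -0.1139 in RB18 and 0.5086 in RB20. Each line has 1 library per medium.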

How the results depend on the processing

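With at least 10 counts required in each of the 4 libraries, 423 rather than 571 miRNAs were tested, and 29 rather than 78 of the Dlk1-Dio3 locus. This filter leaves out miRNAs that are near 0 counts in 1 medium. With it 54 rather than 96 miRNAs were higher, among them 28 of the Dlk1-Dio3 locus. In the Sfmbt2 locus 29 were lower, and 41 seeds were higher. Leaving out a library gave 77 to 83 miRNAs higher and 58 to 88 lower, the fewest without 2i RB20, and 10 to 43 seeds lower, with 10 without 2i RB20 and 11 without 2i RB18. It gave 0 to 7 hairpins, the most without serum RB18, and the cause was not tested. A medium left with 1 library was assumed to vary like the others. At an adjusted p under 0.05, 1 hairpin was called. Across DESeq2, both other scalings, no filter, limma, the 4 libraries alone and the cell line as a block, 89 to 129 miRNAs were higher and 78 to 125 lower, and 0 named miRNAs reversed. Pairing by cell line as a block gave 89 higher and 88 lower, and 17 of the 74 called among the 95 named miRNAs lost their call. Over all alternatives 35 of the 74 lost it at least once. Depth limits what was seen of miRNAs near 3 counts.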
